A study of Mus musculus with 32 samples.

Results

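Ribosome-bound mRNA of Gprin3-marked motor cortex neurons was compared with whole motor cortex RNA in wild-type mice, using 7 of the 32 RNA sequencing libraries of the series. The method was translating ribosome affinity purification (TRAP). Gprin3-bacTRAP mice carry a bacterial artificial chromosome in which Gprin3 regulatory sequence drives ribosomal protein L10a fused to EGFP, and anti-EGFP beads then pull down the polysomes of the cells that make the fusion protein. Per the labels those cells were lower layer 5b pyramidal cells. The members were chosen by title: 2 immunoprecipitates (IPs) named ALS_Gprin3_WT_TRAP_IP and 5 inputs named ALS_WholeTissue_WT_Input. All 7 came from the Gprin3-bacTRAP::SOD1*G93A cross, in which a mutant human SOD1 transgene models amyotrophic lateral sclerosis (ALS), and all were from littermates labelled SOD-, without that transgene. Every mouse was adult, 8 to 17 weeks old, untreated, and the tissue was M1 (primary motor) cortex. Input was RNA of the homogenate before the pull-down. The labels do not say whether a library was 1 animal or a pool, so p-values measure only the spread between these libraries. A second set from untreated Gprin3-bacTRAP ES152 mice labelled Wildtype, with 2 IPs and 3 inputs of M1 cortex that share no library with the first, served for comparison and is called the baseline set here. Its mice were not crossed to SOD1*G93A. Set and cross cannot be told apart. The 3 SOD1*G93A Gprin3 IPs, from mice carrying both transgenes, appear only as levels.

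Layer 5b holds the large pyramidal neurons that project out of the telencephalon, to spinal cord, brainstem and thalamus, and the corticospinal neurons lost in ALS are among them. These cells have long axons rich in neurofilaments and carry a transcription factor programme headed by Fezf2 and Bcl11b. A pull-down of tagged ribosomes is known to enrich the translated mRNA of the tagged cells and to deplete mRNA of other cells and RNA that stays in the nucleus, while some RNA of the surrounding tissue sticks to the beads. Every value of an IP over input is therefore a ratio between a pull-down enriched for 1 cell population and the tissue containing that population. In bulk samples, fewer cells of a type and less RNA per cell cannot be told apart.

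The 2 IPs held 22384298 and 16788121 gene counts, and the 5 inputs 16284037 to 35659043. Across genes, the log2 CPM (counts scaled to a common library total) of the 2 IPs had a Pearson correlation of 0.976, and pairs of inputs 0.982 to 0.992. IP 2 differed from IP 1 in its glial RNA. The summed level of 69 markers of glia was 3353 CPM in IP 1 and 4471 CPM in IP 2, against 5394 to 6622 CPM in the inputs. The libraries also came from both sexes by their transcripts: IP 1 and inputs 1 to 3 had no reads of Y-linked Ddx3y, whereas IP 2 had 72.4 CPM and inputs 4 and 5 were close to it. The cell type label of the 5 inputs also reads lower layer 5b pyramidal cells, although their RNA type is whole tissue. Their glial markers were at the level of the baseline inputs (5450 to 6378 CPM), which carry the label Mixed. The genotype label was checked on Sod1, whose reads include those of the human transgene where its sequence maps. Sod1 was at 323 and 319.6 CPM in the IPs against 310.3 to 385 CPM (median 328) in the inputs, and at 733, 731 and 691 CPM in the SOD1*G93A IPs.

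2 promoters are shown: that of Gprin3, the gene whose regulatory sequence drives the tag, and that of Sst, the somatostatin gene. Sst had the largest rise of the neuropeptide genes. Which part of the Gprin3 sequence on the artificial chromosome acts in the tagged cells was not tested. Both are RefSeq sequences of build GRCm38.p6, 5′ to 3′ on the gene's own strand (minus for both), from 250 bases before to 50 after the start that RefSeq annotates. Capitals mark the cAMP response element TGACGTCA, a palindrome searched on both strands. It was found once in the Sst window, starting at base 203, with 40 bases between it and the start, and not in the Gprin3 window. Of 32851 mouse promoter windows of the same length, 588 (1.79%) held it. Whether the element has any part in the Sst level was not tested.
Gprin3, chr6:59426257-59426556: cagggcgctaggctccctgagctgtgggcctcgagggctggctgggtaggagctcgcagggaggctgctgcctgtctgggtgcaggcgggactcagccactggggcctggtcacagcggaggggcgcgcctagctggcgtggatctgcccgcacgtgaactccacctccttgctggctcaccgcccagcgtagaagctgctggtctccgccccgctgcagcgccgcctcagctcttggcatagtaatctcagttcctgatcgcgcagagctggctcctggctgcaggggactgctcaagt
Sst, chr16:23890795-23891094: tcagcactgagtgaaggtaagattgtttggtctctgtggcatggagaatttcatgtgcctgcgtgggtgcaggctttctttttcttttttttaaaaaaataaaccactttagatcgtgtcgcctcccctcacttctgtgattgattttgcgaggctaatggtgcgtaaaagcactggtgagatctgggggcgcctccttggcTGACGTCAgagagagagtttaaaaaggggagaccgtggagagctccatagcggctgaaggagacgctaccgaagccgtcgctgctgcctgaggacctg

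Markers of layer 5b output neurons were higher in the IPs, and those of other cortical layers mostly were not. Gprin3 itself (chromosome 6, positions 59347226 to 59426294, GRCm38, a neuronal protein of neurite outgrowth) was at 37.2 and 23.6 CPM in the 2 IPs and 9.59, 13.05, 14.1, 11.6 and 9.85 CPM in the 5 inputs. Both IPs lay above all 5 inputs, with IP 1 the higher, and the difference was past the threshold (log2 fold change 1.52, SE 0.20, adjusted p = 5e-06; every adjusted p here is from the quasi-likelihood F test of edgeR, Benjamini-Hochberg adjusted over all genes tested). The endogenous gene and reads from the transgene's copy of its 5′ end were not separated. Of the 28 markers of layer 5b extratelencephalic neurons, all tested, 24 were higher and 3 lower at an adjusted p under 0.05, with a median log2 fold change of 1.12. Over all 14930 genes tested, 20.6% were higher and 19.8% lower, with a median of -0.04. The list's summed level was 1818 to 1908 CPM in the IPs and 1015 to 1112 CPM in the inputs. The list includes Gprin3, the driver of the tag, and was chosen with earlier results of these data known.

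The transcription factors Fezf2, Bcl11b and Pou3f1 rose. Fezf2, the selector of subcortical projection identity, was at 95.2 and 78.4 CPM in the IPs against 38.1 to 55.03 CPM (median 41.97) in the inputs, with no overlap (log2 fold change 1.13, SE 0.13, adjusted p = 1.8e-06). Bcl11b, which acts downstream of Fezf2 in corticospinal axon outgrowth, was at 158 and 156 CPM in the IPs against 86.9 to 125 CPM (median 101) in the inputs (log2 fold change 0.68, SE 0.12, adjusted p = 0.00018). Both groups were again separate, though the Bcl11b rise was the smaller. Pou3f1, a POU-domain factor of layer 5, had a log2 fold change of 1.61 (SE 0.13, adjusted p = 1.4e-08). Crym, a thyroid hormone-binding protein that marks corticospinal neurons, was at 76.7 and 67.2 CPM in the IPs against 31.5 to 43.6 CPM (median 32.7) in the inputs (log2 fold change 1.11, SE 0.15, adjusted p = 7.1e-06). The heavy neurofilament gene Nefh (chromosome 11, positions 4938754 to 4948064) went from a median of 60.2 CPM in the inputs to 221 and 249 CPM, a fold change of 4.36 (log2 fold change 2.13, SE 0.11, adjusted p = 7.3e-11). The steepest rises among markers with at least 5 CPM were Slco2a1, a prostaglandin transporter, at 17.6 and 8.22 CPM in the IPs against 1.58 to 2.95 CPM (median 1.97) in the inputs (log2 fold change 2.75, SE 0.31, adjusted p = 9e-07), and Diaph3, a formin that nucleates actin, at 11.5 and 11.9 CPM in the IPs against 1.35 to 3.42 CPM (median 2.44) in the inputs (log2 fold change 2.38, SE 0.29, adjusted p = 3.2e-06). IP 1 held more than double the Slco2a1 of IP 2, while the 2 Diaph3 values were alike. Parm1, Sulf2 and Cdh13 (log2 fold changes 1.71, 1.51 and 1.66) and Pou3f1 are named after their values were seen.

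The 3 markers on the list that fell were Hpgd, the enzyme that inactivates prostaglandins (log2 fold change -1.48, adjusted p = 0.002), Etv1, an ETS factor shared with other layer 5 neurons, and Erg. Etv1 was at 120.4 and 142 CPM in the IPs against 185 to 199 CPM (median 190.2) in the inputs (log2 fold change -0.42, SE 0.09, adjusted p = 0.0016), and its call was lost with a GC trend taken out (-0.21, adjusted p = 0.067). Erg stood at 0.134 and 0.119 CPM in the IPs and 0.464 to 2.34 CPM (median 0.860) in the inputs, and its call was lost without IP 1, IP 2 or input 3 (adjusted p = 0.075, 0.072 and 0.058). Markers of other pyramidal cells gave mixed counts, against 20.6% higher and 19.8% lower over all genes tested. With all 7 libraries, the layer 6 counts did not exceed these shares. Of 9 tested for layer 5 intratelencephalic neurons 2 were higher and 4 lower, of 14 for layers 2 to 4, 3 and 6, and of 16 for layer 6, 2 and 3 (lower in 6 without IP 2). Of 15 general markers of glutamatergic neurons 5 were higher and 6 lower (3 without IP 1), with a median log2 fold change of -0.33. Slc17a7, the vesicular glutamate transporter gene of cortical pyramidal cells, had the highest fold change of that list, at 646 and 590.3 CPM in the IPs against 311 to 361 CPM (median 313) in the inputs (log2 fold change 1.06, SE 0.08, adjusted p = 5e-09). Colgalt2, the driver of the other bacTRAP line in the series, had a log2 fold change of 0.88 (adjusted p = 0.025), and the call was lost without IP 2 (adjusted p = 0.12), input 1 or input 4 (adjusted p = 0.051 for both). Rpl10a, the mouse gene of the tagged protein, was at 16.98 and 15.3 CPM in the IPs against 14.9 to 22.1 CPM (median 19.5) in the inputs (-0.08, adjusted p = 0.77).

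**Figure D1:**
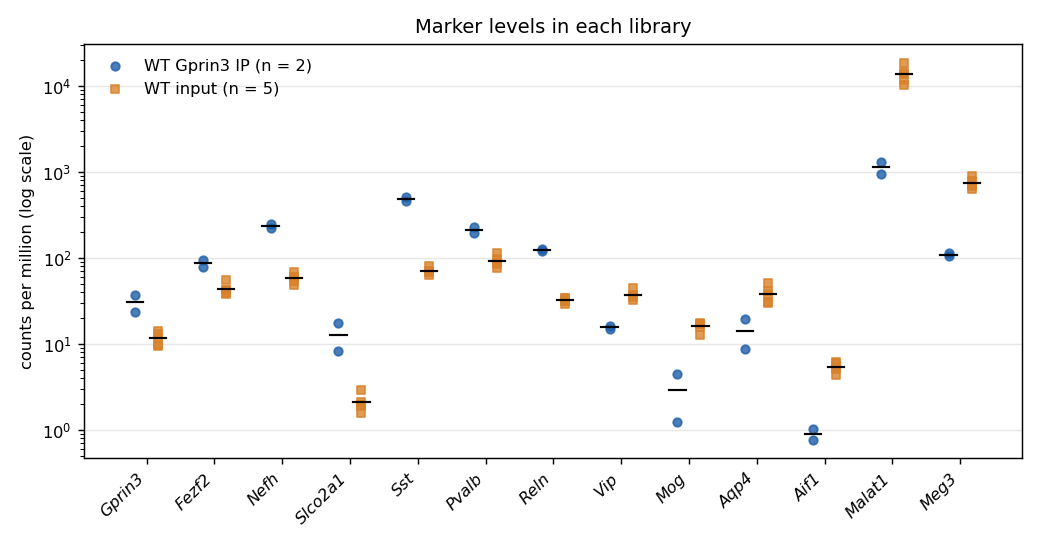
Levels in CPM (log axis) of 13 genes in each of the 2 WT Gprin3 IPs (circles) and 5 WT inputs (squares), with black lines at the group means. Gprin3, Fezf2, Nefh and Slco2a1 and the interneuron genes Sst, Pvalb and Reln lie higher in both IPs than in all inputs, and Vip, the glial genes Mog, Aqp4 and Aif1, and the noncoding Malat1 and Meg3 lie lower.

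Several genes of GABAergic interneurons were also higher in the IPs. Sst (chromosome 16, positions 23889573 to 23890958), the peptide of the largest dendrite-targeting interneuron class, was at 515 and 465 CPM in the IPs and 63.01, 68.97, 67.9, 70.4 and 80.2 CPM in the inputs (log2 fold change 2.93, SE 0.09, adjusted p = 4.7e-14), a fold change of 7.62. Pvalb, the calcium buffer of fast-spiking interneurons, was at 196 and 230.3 CPM in the IPs against 75.7 to 115 CPM (median 86.9) in the inputs (log2 fold change 1.33, SE 0.12, adjusted p = 1.6e-07), and Reln, the secreted glycoprotein reelin, at 121 and 127 CPM in the IPs against 29.02 to 33.9 CPM (median 31.99) in the inputs (log2 fold change 2.07, SE 0.11, adjusted p = 4.1e-11). In all 3 genes the groups were separate. Over all genes tested, both groups did not overlap in 2842 (19%) with the IPs higher and in 4619 (30.9%) with the IPs lower. The opioid peptide gene Pdyn was at 57.99 and 57.5 CPM in the IPs against 9.17 to 13.5 CPM (median 12.04) in the inputs (log2 fold change 2.48, SE 0.16, adjusted p = 7.9e-10). Other interneuron genes went the opposite way. Vip, the peptide of disinhibitory interneurons, was at 16.2 and 15.1 CPM in the IPs against 32.1 to 45.04 CPM (median 36.02) in the inputs (log2 fold change -1.12, SE 0.16, adjusted p = 1.7e-05), and Npy, neuropeptide Y, at 51.9 and 55.3 CPM in the IPs against 96.6 to 107 CPM (median 100.3) in the inputs (log2 fold change -0.79, SE 0.11, adjusted p = 8.3e-06).

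Of 21 interneuron subclass markers, 7 were higher and 5 lower, with a median log2 fold change of 0.29, and without IP 1 the lower count was 3. The shares over all genes tested were 20.6% higher and 19.8% lower, and the lower count was near its share. The summed level of 17 general GABAergic markers was 1350 to 1389 CPM in the IPs, within the 1242 to 1413 CPM of the inputs. Of these 17 markers, 7 were higher and none lower. With upper quartile factors, a filter of at least 5 CPM or a length trend taken out, 3 were lower. Those that rose included the transcription factor gene Lhx6, needed by interneurons from the medial ganglionic eminence, at 61.3 and 38.96 CPM in the IPs against 17.4 to 35.2 CPM (median 21.4) in the inputs (log2 fold change 1.24, SE 0.22, adjusted p = 0.0004), in which IP 1 was the higher of the 2. The GABA-synthesizing enzyme gene Gad1 was at 201 and 219 CPM in the IPs against 148 to 189 CPM (median 157) in the inputs (0.48, adjusted p = 0.00078). Gad2, its second form, was at 536 and 462 CPM in the IPs against 536 to 667 CPM (median 656) in the inputs (-0.18, adjusted p = 0.14), and is named after its value was seen. Sst, Pvalb and Vip moved alike in the baseline set, with log2 fold changes of 2.95 (adjusted p = 5.4e-07), 1.34 (adjusted p = 0.00021) and -1.16 (adjusted p = 0.0033). The differences between the sets in these genes were -0.03 (adjusted p = 0.94), -0.01 (adjusted p = 0.99) and 0.03 (adjusted p = 0.96). Other members of their list did differ. Of the 21 interneuron subclass markers 4 passed the test of the difference toward the WT set and 4 toward the baseline set. Of the 17 general GABAergic markers 2 and 1 passed, against 8.05% and 4.27% of all genes tested. The source of the interneuron transcripts was not tested.

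Genes of the axon's skeleton rose together. Of the 30 genes of the neurofilament and axonal cytoskeleton list, 24 were higher and 1 lower, with a median log2 fold change of 0.95. The shares over all genes tested were 20.6% and 19.8%. All 4 neurofilament subunits of central neurons rose: beside Nefh, these were Nefm at 735 and 669.8 CPM in the IPs against 229 to 296 CPM (median 262) in the inputs (log2 fold change 1.56, SE 0.09, adjusted p = 2.6e-10), Nefl (1.51, adjusted p = 1.9e-10) and Ina (1.41, adjusted p = 5.5e-10). The microtubule-binding protein gene Map1a was at 2429.6 and 2344 CPM in the IPs against 799.9 to 926 CPM (median 837) in the inputs (log2 fold change 1.61, SE 0.07, adjusted p = 9.5e-12). Map1b (1.34, adjusted p = 4.3e-11) and Sptan1, the spectrin of the membrane skeleton (1.38, adjusted p = 8.5e-11), did likewise. Nefl, Ina, Map1b and Sptan1 were picked for mention after their values were seen. The exception was Stmn1, a tubulin-sequestering protein of growing neurites, at 432 and 477 CPM in the IPs against 619.9 to 798 CPM (median 724) in the inputs (log2 fold change -0.52, SE 0.10, adjusted p = 0.00026).

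Motors divided by gene. Dync1h1 (chromosome 12, positions 110601452 to 110666945), the heavy chain of the retrograde motor dynein, was at 1627 and 1402 CPM in the IPs and 199, 218, 220.2, 183 and 217 CPM in the inputs, a fold change of 7.96 (log2 fold change 2.99, SE 0.08, adjusted p = 5.9e-15). Both IPs lay far above every input. Dctn1, the dynactin subunit that links the motor to microtubules, was at 153 and 143 CPM in the IPs against 67.8 to 72.1 CPM (median 70.6) in the inputs (log2 fold change 1.204, SE 0.09, adjusted p = 8.6e-09). Yet of 28 dynein and dynactin genes 10 were higher and 5 lower, and the median was -0.01. With 20.6% of all genes tested higher and 19.8% lower, that lower count was near its share. Of 24 kinesin genes, motors of the anterograde direction and their light chains, 10 were higher and 1 lower. Among them were Klc2, a kinesin light chain, at 230.0 and 245 CPM in the IPs against 63.6 to 81.4 CPM (median 78.3) in the inputs (log2 fold change 1.78, SE 0.10, adjusted p = 1.1e-10), and Kif1a, which carries synaptic vesicle precursors, at 1599 and 1759 CPM in the IPs against 678 to 854 CPM (median 812) in the inputs (log2 fold change 1.201, SE 0.09, adjusted p = 3.2e-09).

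Ion channel and receptor families gave unequal counts, where 20.6% of all genes tested were higher and 19.8% lower. Of 15 sodium and HCN channel genes 9 were higher and 1 lower. Scn4b, the beta subunit that gives resurgent sodium current, was at 160.2 and 173 CPM in the IPs against 44.4 to 65.1 CPM (median 60.5) in the inputs (log2 fold change 1.65, SE 0.12, adjusted p = 5.1e-09), and Scn1a, a pore-forming sodium channel subunit, at 589 and 676 CPM in the IPs against 270.0 to 355 CPM (median 301) in the inputs (log2 fold change 1.15, SE 0.11, adjusted p = 1.2e-07). Of 24 glutamate receptor genes 15 were higher and 2 lower. Grin1, the obligatory NMDA receptor subunit, was at 286 and 306 CPM in the IPs against 100.4 to 123.1 CPM (median 115) in the inputs (log2 fold change 1.52, SE 0.10, adjusted p = 9.3e-10), and the group III metabotropic receptor gene Grm4 at 30.3 and 26.5 CPM in the IPs against 8.72 to 14.03 CPM (median 11.8) in the inputs (log2 fold change 1.47, SE 0.19, adjusted p = 5.1e-06). Cacna1h, a T-type calcium channel, had a log2 fold change of 1.96 (SE 0.18, adjusted p = 6.5e-08), and 11 of 24 calcium channel genes rose with 5 falling. The falling count was near the share over all genes.

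Of 31 other potassium channel genes 7 were higher and 8 lower, with a median of -0.29, and of 15 GABA receptor genes 5 and 4. Over all genes tested 20.6% were higher and 19.8% lower, and the shares of the potassium channel list were near these. Those potassium channel counts were 4 and 3 without IP 1 and 2 and 9 without IP 2, and 5, 4 and 4 were lower without input 1, 4 or 5. The GABA receptor counts were 5 and 2 without IP 1 and 3 and 4 without IP 2. Among 44 voltage-gated potassium channel genes, 16 were higher and 6 lower. The modulatory subunit Kcng2 stood at 9.43 and 7.92 CPM in the IPs against 1.54 to 3.52 CPM (median 2.40) in the inputs (log2 fold change 1.93, SE 0.30, adjusted p = 4.8e-05). Kcnip2, a partner of Kv4 channels, went the opposite way, to 29.2 and 25.9 CPM in the IPs against 86.8 to 93.9 CPM (median 91.9) in the inputs (log2 fold change -1.60, SE 0.12, adjusted p = 4.3e-09). Synaptic vesicle genes were higher in 20 of 31 and lower in 2. Sv2c, a vesicle glycoprotein, was at 48.4 and 62.8 CPM in the IPs against 13.1 to 22.2 CPM (median 17.6) in the inputs (log2 fold change 1.78, SE 0.17, adjusted p = 1e-07), whereas the SNARE protein gene Stx1a was at 71.7 and 70.5 CPM in the IPs against 103 to 145 CPM (median 129.5) in the inputs (log2 fold change -0.70, SE 0.13, adjusted p = 0.00022). Another SNARE gene, Snap25, stood at 15638 and 14445 CPM in the IPs against 14717 to 17517 CPM (median 16918) in the inputs (-0.01, adjusted p = 0.95).

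Markers of oligodendrocytes, astrocytes and microglia were more often lower than higher in the IPs, to unequal degrees. For comparison, 19.8% of all genes tested were lower and 20.6% higher. Of 20 oligodendrocyte markers 14 were lower and 1 higher (median log2 fold change -1.10), of 18 astrocyte markers 9 and 1 (-0.49), and of 18 microglial markers 10 and none (-1.10). Of 12 oligodendrocyte precursor markers 4 were lower (2 without IP 1, input 2 or input 3) and 1 higher, with a median of -0.30, and their summed level was 227 CPM in both IPs, within the 214 to 287 CPM of the inputs. Leaving out IP 1 brought the oligodendrocyte count to 9, and leaving out IP 2 brought the astrocyte count to 14. Mog, a protein of the outer myelin sheath, was at 1.25 and 4.53 CPM in the IPs and 16.9, 12.9, 16.9, 15.9 and 17.5 CPM in the inputs (log2 fold change -2.38, SE 0.36, adjusted p = 4.5e-05). Mog was higher in IP 2 than in IP 1 and in neither IP reached the inputs. The myelin basic protein gene Mbp was at 177 and 204 CPM in the IPs against 237 to 305 CPM (median 257) in the inputs (log2 fold change -0.37, SE 0.10, adjusted p = 0.0072), and its call was lost without IP 1 (log2 fold change -0.28, adjusted p = 0.11).

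In astrocytes, the water channel gene Aqp4 was at 8.76 and 19.4 CPM in the IPs against 29.98 to 51.7 CPM (median 38.4) in the inputs (log2 fold change -1.33, SE 0.29, adjusted p = 0.0025), and the intermediate filament gene Gfap at 5.76 and 3.99 CPM in the IPs against 13.95 to 18.7 CPM (median 15.97) in the inputs (log2 fold change -1.60, SE 0.23, adjusted p = 1.6e-05). Ntsr2, a neurotensin receptor of astrocytes, was at 2.19 and 5.60 CPM in the IPs against 16.5 to 24.2 CPM (median 18) in the inputs (log2 fold change -2.17, SE 0.30, adjusted p = 1.4e-05). The microglial genes Aif1, an actin-bundling protein, and P2ry12, a purine receptor, were at 1.03 and 0.774 CPM in the IPs against 4.41 to 6.25 CPM (median 5.34) in the inputs (log2 fold change -2.45, SE 0.37, adjusted p = 3.4e-05) and 2.19 and 2.38 CPM in the IPs against 9.37 to 12.9 CPM (median 11.2) in the inputs (log2 fold change -2.19, SE 0.27, adjusted p = 3.4e-06). A few listed markers rose instead. S100b, a calcium-binding protein, was at 113 and 95.8 CPM in the IPs against 56.6 to 81.2 CPM (median 74.1) in the inputs (log2 fold change 0.69, SE 0.12, adjusted p = 0.00015), Gsn, the actin-severing protein gelsolin, at 22.02 and 25.7 CPM in the IPs against 7.46 to 10.8 CPM (median 9.02) in the inputs (log2 fold change 1.53, SE 0.19, adjusted p = 2.5e-06), and Tnr, the matrix protein tenascin-R, at 96.7 and 87.8 CPM in the IPs against 30.6 to 48.1 CPM (median 34.1) in the inputs (log2 fold change 1.45, SE 0.14, adjusted p = 1.3e-07).

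Of 19 mural and meningeal markers 6 were lower and 1 higher, where 19.8% of all genes tested were lower. Igf2, a growth factor of meninges and vessels, was at 6.92 and 9.77 CPM in the IPs against 39.1 to 51.4 CPM (median 50.97) in the inputs (log2 fold change -2.43, SE 0.19, adjusted p = 7.1e-09). Of 17 endothelial markers 3 were higher, near the 20.6% of all genes tested, and none lower, and without IP 2 the counts were 1 and 4. Cldn5, the tight junction protein of brain endothelium, was near 0 throughout, at 0.447 and 0.536 CPM in the IPs against 0.307 to 0.533 CPM (median 0.328) in the inputs (0.46, adjusted p = 0.69). The pericyte channel subunit gene Abcc9 was at 2.86 and 9.47 CPM in the IPs and 1.49 to 4.03 CPM (median 2.93) in the inputs. IP 1 lay within the inputs and IP 2 above them, and the call (1.25, adjusted p = 0.022) was lost without IP 2 (0.15, adjusted p = 0.84).

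RNA that stays in the nucleus was depleted. Of 15 nuclear noncoding RNAs 11 were lower and 2 higher, with a median log2 fold change of -1.46. Among all genes tested 19.8% were lower and 20.6% higher. Malat1, the abundant RNA of nuclear speckles, was at 947 and 1322 CPM in the IPs and 18620.1, 10255, 11652, 13982 and 14575 CPM in the inputs (log2 fold change -3.48, SE 0.34, adjusted p = 0.00054). Meg3, a maternally expressed RNA, was at 105 and 114 CPM in the IPs against 635 to 898 CPM (median 707) in the inputs (log2 fold change -2.64, SE 0.12, adjusted p = 1.7e-11), and Miat, another nuclear RNA of neurons, at 4.42 and 5.12 CPM in the IPs against 35.5 to 64.1 CPM (median 42.5) in the inputs (log2 fold change -3.13, SE 0.23, adjusted p = 3.8e-09). In all 3 both IPs were below every input by more than 5-fold. The 2 that rose were Pantr1 (0.57, adjusted p = 0.00051) and Peg13 (0.52, adjusted p = 5e-05).

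**Figure D2:**
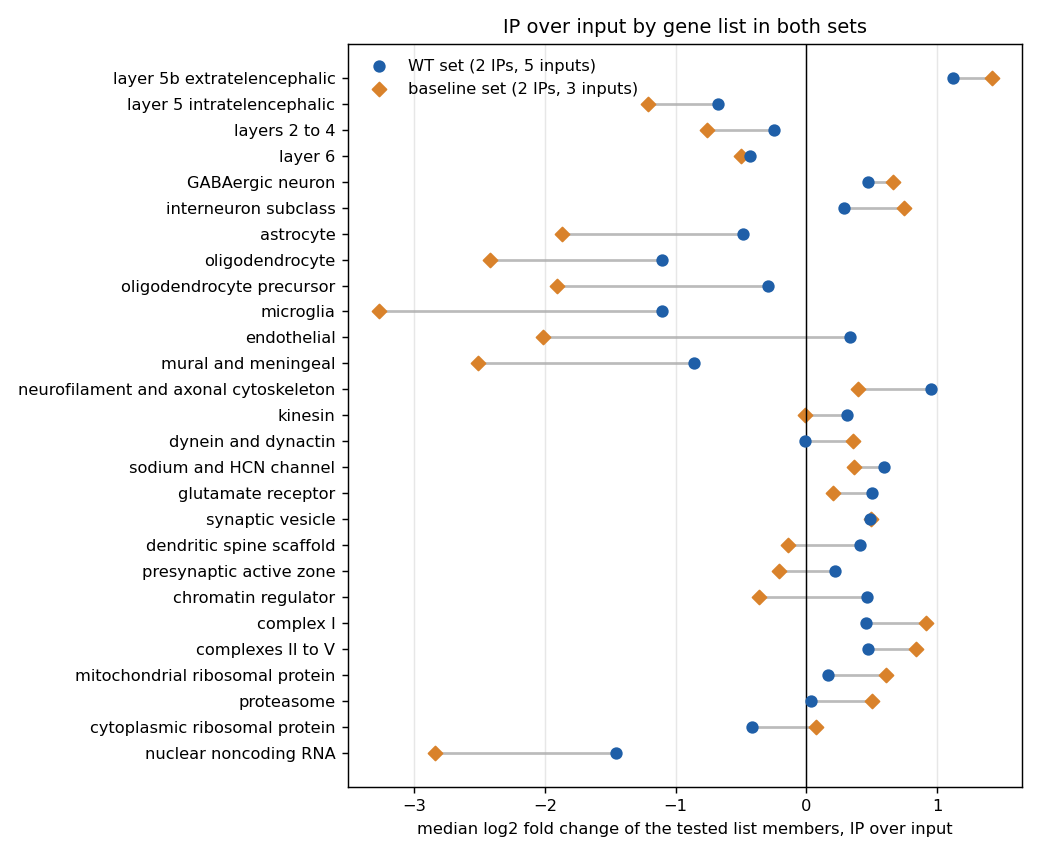
Median log2 fold change of IP over input for 27 gene lists in the WT set (circles; 2 IPs and 5 inputs) and the baseline set (diamonds; 2 IPs and 3 inputs), a grey line joining both values of a list. Layer 5b markers lie right of 0 in both sets (1.12 and 1.42); glial lists lie left of 0 in both and nearer to 0 in the WT set; the chromatin regulators lie right of 0 in the WT set and left of it in the baseline set (0.47 and -0.37).

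Among all genes tested 20.6% were higher and 19.8% lower. Of 37 complex I genes 25 were higher and none lower (median log2 fold change 0.45), and of 40 genes of complexes II to V 23 and 1. Tested against a change of 1.5-fold, 1 and 4 were higher and none lower. Without IP 1 the median log2 fold changes of the 2 lists were 0.38 and 0.36. Ndufs1, the largest complex I subunit, was at 180.0 and 179 CPM in the IPs against 99.4 to 127 CPM (median 111) in the inputs (log2 fold change 0.81, SE 0.10, adjusted p = 1.9e-06). Uqcrc1, a core subunit of complex III, was at 173 and 165 CPM in the IPs against 70.6 to 89.4 CPM (median 87.9) in the inputs (log2 fold change 1.14, SE 0.10, adjusted p = 4.7e-08), and Cox5a, of complex IV, at 567 and 613 CPM in the IPs against 313 to 374 CPM (median 322) in the inputs (log2 fold change 0.94, SE 0.08, adjusted p = 5.1e-08). Glycolysis genes were higher in 11 of 17 and lower in 1. Genes of the cytoplasmic ribosome went the opposite way, with 34 of 78 lower and 1 higher and a median of -0.41. Tested against a change of 1.5-fold, 3 were lower and none higher. With a length trend taken out 26 were lower and 5 higher. Rpl29 was at 56.7 and 60.4 CPM in the IPs against 100 to 154 CPM (median 141) in the inputs (log2 fold change -1.07, SE 0.14, adjusted p = 1e-05), and the one that rose, Rpl18, at 18.8 and 18.1 CPM in the IPs against 8.72 to 13.6 CPM (median 10.6) in the inputs (log2 fold change 0.85, SE 0.20, adjusted p = 0.0019). Many ribosomal protein genes have near-identical processed copies in the genome, and how the counting treated reads shared with them is not given in the sources used here.

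Among genes with at least 5 CPM in the IPs and no overlap between the groups, predicted genes left out, the 8 largest rises were, in order, in Ctse, Pou2af1, Irf4, E2f2, Dync1h1, Nek2, Sst and Hpse. Dync1h1 and Sst were abundant in the inputs, and the first 3 were absent or nearly so. Ctse, the aspartic protease cathepsin E of immune and gut cells, was at 42.8 and 26.9 CPM in the IPs and 0.421, 0.815, 0.281, 0.123 and 0.309 CPM in the inputs (log2 fold change 6.56, SE 0.32, adjusted p = 4.3e-11). Pou2af1, a coactivator of B lymphocytes, was at 19.5 and 6.55 CPM and 0.0841, 0, 0, 0.368 and 0.348 CPM (log2 fold change 6.50, SE 0.67, adjusted p = 6e-06), and Irf4, a transcription factor of lymphocytes and plasma cells, at 37.3 and 31.2 CPM and 1.12, 2.40, 2.25, 0.430 and 1.04 CPM (log2 fold change 4.69, SE 0.35, adjusted p = 1e-07). The choice required an adjusted p under 0.05, no overlap and a large rise. Their separation, fold changes and p-values are therefore no further evidence. Pou2af1 was higher in IP 1 than in IP 2. The cell cycle factor gene E2f2 was at 8.89 and 6.49 CPM in the IPs against 0.123 to 1.06 CPM (median 0.797) in the inputs (log2 fold change 3.52, SE 0.43, adjusted p = 3.1e-06), the mitotic kinase gene Nek2 had a log2 fold change of 2.94 (adjusted p = 4.2e-05), and Hpse, the enzyme that cleaves heparan sulphate, one of 2.77 (adjusted p = 0.00011).

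Several of these genes were at other levels in the other IPs of the line. Ctse was at 92.98, 460.2 and 23.6 CPM in the 3 SOD1*G93A IPs, Pou2af1 at 24.99, 205 and 21.2 CPM, Irf4 at 82.4, 369 and 20.7 CPM and E2f2 at 24.4, 83.2 and 6.28 CPM. The second of those libraries was the highest in each. In the baseline IPs Ctse was at 2.51 and 1.42 CPM, and Irf4, at 1.14 and 0.886 CPM, lay within the range of the WT inputs. The difference of enrichment between the WT and baseline sets was 4.34 (adjusted p = 0.0001) for Ctse, 4.19 (adjusted p = 0.0002) for Irf4 and 4.27 (adjusted p = 0.004) for E2f2. Pou2af1 missed the threshold (3.90, adjusted p = 0.1), and so did Nek2 (2.31, adjusted p = 0.062). All 5 genes were chosen by their rise in the same WT libraries that enter this difference. Their differences and p-values are therefore no further evidence. Other genes of antibody-secreting and B cells did not share this pattern throughout, and they were chosen after their values were seen. Jchain, the joining chain of antibodies, was at 2.46 and 1.73 CPM in the IPs and at most 0.144 CPM in an input. Xbp1, a factor of secretory cells, was at 57.6 and 45.5 CPM in the IPs against 56.2 to 70.6 CPM (median 63.2) in the inputs and did not pass the test (-0.17, adjusted p = 0.32). Prdm1, a factor of plasma cells, was at 5.54 and 2.26 CPM in the IPs against 1.78 to 2.80 CPM (median 2.11) in the inputs and did not pass it either (0.91, adjusted p = 0.07). The source of these transcripts was not tested.

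**Figure D3:**
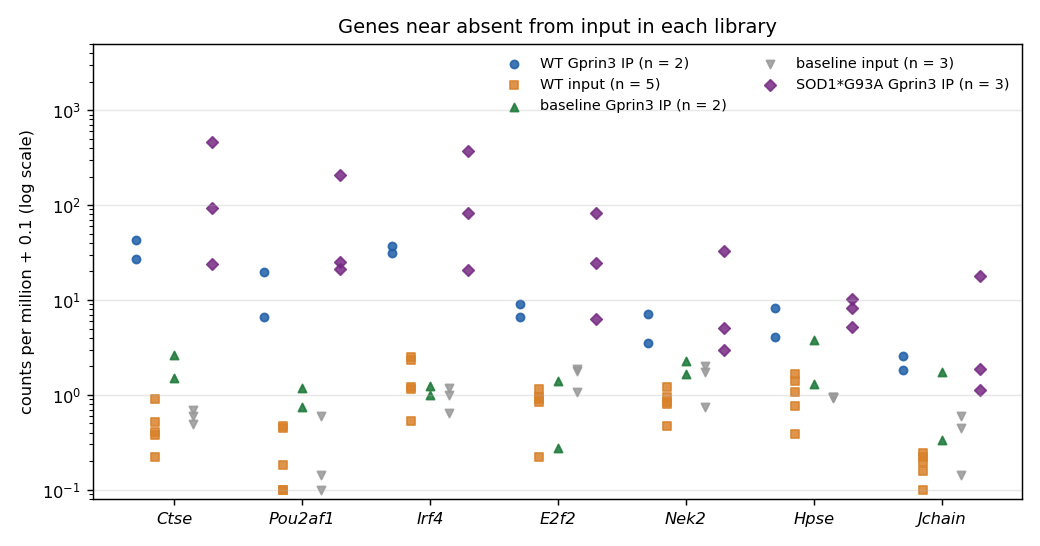
CPM plus 0.1 (log axis) of 7 genes nearly absent from input, in the WT Gprin3 IPs, WT inputs, baseline IPs, baseline inputs and SOD1*G93A Gprin3 IPs, 1 point per library. Ctse, Pou2af1, Irf4 and E2f2 lie above the WT inputs in both WT IPs and are highest in 1 SOD1*G93A IP.

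How far the enrichment held in other mice was read from the baseline set. There 4242 of 14527 genes (29.2%) were called, 2019 higher and 2223 lower, against 6037 of 14930 (40.4%) in the WT set. With upper quartile factors the baseline split was 1559 higher and 2604 lower and the WT split 2572 and 3428, and without baseline input 1, 2 or 3 the call count was 2285, 2689 or 2559. Of the 14308 genes tested in both, 2597 were called in both, and 2480 of these in the same direction, which is 41.8% of the WT calls and 58.8% of the baseline calls among those genes. Log2 fold changes correlated across genes with r = 0.546 and rho = 0.571, where genes are not independent replicates. The layer 5b markers gave nearly the same counts as in the WT set, 23 higher and 2 lower with a median of 1.42, where 13.9% of all genes tested were higher and 15.3% lower. The difference between the sets was tested in 1 fit of all 12 libraries, where 1890 of 15342 genes (12.3%) passed, 1235 (8.05%) toward the WT set and 655 (4.27%) toward the baseline set, and 1077 passed without WT IP 2. Of the layer 5b markers 2 passed, both toward the baseline set (4 without baseline IP 1). Gprin3 did not pass (-0.49, adjusted p = 0.32), nor did Fezf2 (-0.54, adjusted p = 0.15), Bcl11b (-0.06, adjusted p = 0.88) or Nefh (0.28, adjusted p = 0.38).

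Glial depletion was weaker in the WT set. The summed 69 glial markers stood at 1900 and 1757 CPM in the baseline IPs and 1572 to 1653 CPM in the SOD1*G93A IPs, below both WT IPs. In the test of the difference 8.05% of all genes passed toward the WT set and 4.27% toward the baseline set. There 13 of 20 oligodendrocyte, 9 of 18 astrocyte and 7 of 18 microglial markers passed, all toward the WT set. Without WT IP 2 these counts were 8, 4 and 2. Gfap had a difference of 1.97 (adjusted p = 0.0059) and Mbp one of 1.23 (adjusted p = 7.6e-05). Mbp was at 53.4 and 74.2 CPM in the baseline IPs and 213, 233 and 232 CPM in the baseline inputs, against 177 and 204 CPM in the WT IPs. Nuclear RNAs had the same direction, with 7 of 15 toward the WT set and 1 toward the baseline set. Snhg11, the host of small nucleolar RNAs, had log2 fold changes of -1.35 in the WT set and -2.71 in the baseline set (difference 1.36, adjusted p = 0.0013). The part that RNA of other cells had in the results was not tested.

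The sets went opposite ways for the chromatin regulators. Of 31 chromatin regulators 20 were higher and 2 lower in the WT set, and 1 higher and 12 lower in the baseline set. Their median log2 fold changes were 0.47 and -0.37. Among all genes tested 20.6% were higher and 19.8% lower in the WT set, and 13.9% and 15.3% in the baseline set. The difference was past the threshold in 24 of the chromatin regulators, all toward the WT set, as in 8.05% of all genes. Atrx, a chromatin remodeller, was at 858 and 818 CPM in the IPs against 361 to 421 CPM (median 403) in the inputs (log2 fold change 1.205, SE 0.08, adjusted p = 9e-10), and at 404 and 325 CPM in the baseline IPs and 434, 301 and 368 CPM in the baseline inputs. Both WT IPs were about double the inputs, whereas the baseline IPs were close to theirs, and the difference was 0.99 (SE 0.18, adjusted p = 0.0008). Chd6, a helicase of the CHD family, differed by 0.94 (adjusted p = 0.0032), and Smarca4, the ATPase of BAF complexes, by 0.79 (adjusted p = 0.0048). For Arid1a, another BAF subunit named after its values were seen, the log2 fold change was 0.73 (adjusted p = 1.3e-06) in the WT set and -0.56 (adjusted p = 0.012; adjusted p = 0.073 without baseline input 3) in the baseline set, a difference of 1.28 (adjusted p = 6.7e-06).

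Postsynaptic scaffolds behaved similarly. Of 29 dendritic spine scaffold genes tested in the WT set 17 were higher and 4 lower, against 2 higher and 9 lower of 30 in the baseline set. Without baseline IP 2 or baseline input 1 or 3 that last count was 5, 3 or 4. The difference passed in 13 toward the WT set and 1 toward the baseline set, against 8.05% and 4.27% of all genes tested. Ppp1r9a, the actin-binding scaffold neurabin, was at 1576 and 1312 CPM in the IPs against 570.0 to 694 CPM (median 607) in the inputs (log2 fold change 1.35, SE 0.08, adjusted p = 5.5e-10; difference 1.08, adjusted p = 0.00071). At the release site, Bsn, the large active zone scaffold bassoon, rose in the WT set to 808 and 892 CPM in the IPs against 429 to 510.4 CPM (median 489) in the inputs (log2 fold change 0.97, SE 0.08, adjusted p = 3.6e-08) and fell in the baseline set, where it was at 169 and 151 CPM in the IPs and 539, 546 and 494 CPM in the inputs (-1.50, adjusted p = 1.7e-05). The difference was 2.46 (SE 0.15, adjusted p = 7.5e-10). Unc13a, the vesicle priming factor Munc13-1 and a human ALS risk gene, differed by 1.22 (adjusted p = 2.4e-05). The active zone list had 8 of 22 toward the WT set and 2 toward the baseline set, and without WT IP 2 the first count was 5. Of the cytoskeletal genes 10 of 30 passed toward the WT set and none the other way, with Map1a at 1.31 (adjusted p = 5.2e-05) and Sptan1 at 1.14 (adjusted p = 4.2e-05). The translation initiation scaffolds Eif4g1 (1.32, adjusted p = 0.00013) and Eif4g3 (1.33, adjusted p = 6.9e-06) also differed toward the WT set.

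Several other lists had the opposite difference. Of all genes tested for the difference, 4.27% passed toward the baseline set and 8.05% toward the WT set. Of the respiratory chain genes 9 of 37 in complex I and 11 of 40 in complexes II to V passed toward the baseline set, and none toward the WT set. The same held for 15 of 79 cytoplasmic ribosomal, 9 of 76 mitochondrial ribosomal and 15 of 39 proteasome genes, with 1 proteasome gene toward the WT set. Without WT IP 2 these 5 counts were 4, 6, 5, 2 and 8. Without baseline IP 1 the counts of complex I, complexes II to V and the mitochondrial ribosome were each 22, and without baseline IP 2 those of complex I, complexes II to V and the cytoplasmic ribosome were 5, 5 and 8. Without baseline input 1 complex I had 5, the cytoplasmic ribosome 9, the mitochondrial ribosome 4 and the proteasome 9, and without baseline input 2 the mitochondrial ribosome had 14. The mitochondrial ribosomal count without baseline input 1 was near the share over all genes. Rpl29 was at 132 and 148 CPM in the baseline IPs and 124, 192 and 171 CPM in the baseline inputs, and differed by -1.08 (adjusted p = 0.0034). Snap25 differed by -0.76 (adjusted p = 0.0021).

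Transcript length was taken from annotation, as that of the longest annotated transcript, which need not be the form expressed here. In the WT set the median log2 fold change was -0.31 for 713 genes up to 1 kb, -0.15 for 1 to 2 kb, -0.06 for 2 to 4 kb, 0.04 for 4 to 8 kb and 0.25 for 884 genes over 8 kb. The share called higher went from 9.40% in the shortest bin to 42.4% in the longest. In the baseline set the same 5 medians were 0.19, 0.13, 0.02, -0.13 and -0.30. With a length trend taken out, the chromatin regulators called toward the WT set went from 24 to 9 with 1 toward the baseline set, and dendritic spine scaffold genes from 13 to 9 with 3. The differences of Atrx (0.40, adjusted p = 0.087), Chd6 (0.33, adjusted p = 0.25), Smarca4 (0.52, adjusted p = 0.061) and Ppp1r9a (0.53, adjusted p = 0.17) then missed the threshold. Those of Arid1a, Bsn, Unc13a, Map1a, Sptan1, Eif4g1, Eif4g3 and Dync1h1 still passed it. Toward the baseline set, complex I went from 9 to 2, complexes II to V from 11 to 5 and the cytoplasmic ribosomal protein genes from 15 to 5. Within each set, the chromatin regulator counts with the trend taken out were 15 higher and 2 lower in the WT set, and 5 higher and 9 lower in the baseline set.

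**Figure D4:**
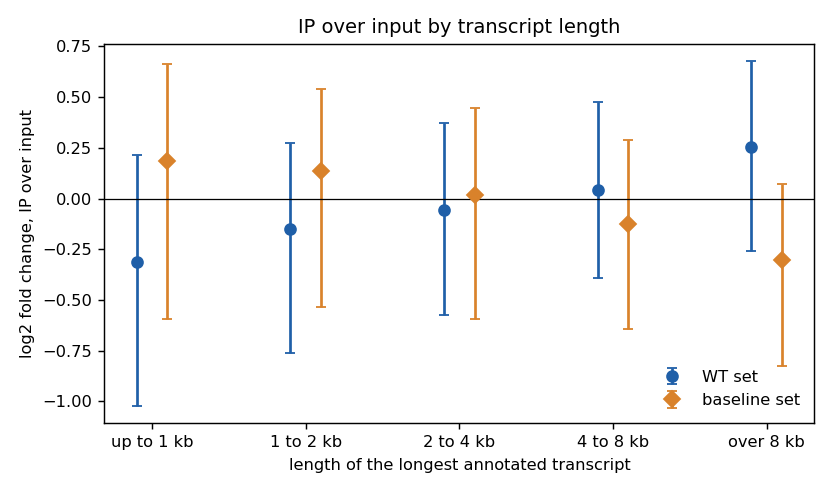
Median log2 fold change of IP over input (points) with the quartiles (bars) by length of the longest annotated transcript in the WT set (circles) and the baseline set (diamonds). The WT medians go from -0.31 to 0.25 with length, and the baseline medians from 0.19 to -0.30.

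Some single genes differed strongly between the sets. Dync1h1 and Kalrn were named for their rise in the WT set, and Ubr3 and Atg7 by this same test of the difference. Their differences and p-values are therefore no further evidence. Dync1h1 had the largest difference toward the WT set of the dynein and dynactin genes, 2.13 (adjusted p = 9.6e-09). It was at 338 and 350.3 CPM in the baseline IPs with 234, 193 and 237 CPM in the baseline inputs, and at 194, 364 and 261 CPM in the SOD1*G93A IPs. The WT IPs thus held several times the Dync1h1 of any of those 5 other Gprin3 IPs. In the reverse direction, Ubr3, a ubiquitin ligase of the N-degron pathway, was at 521 and 521 CPM in the IPs against 251 to 287 CPM (median 283) in the inputs (log2 fold change 1.05, SE 0.08, adjusted p = 4.9e-09) but at 7159 and 3795 CPM in the baseline IPs with 283, 225 and 283 CPM in the baseline inputs, a difference of -3.56 (adjusted p = 2.6e-06). Atg7, the E1-like enzyme of autophagy, was at 41.3 and 39.3 CPM in the IPs against 21.4 to 26.6 CPM (median 23.8) in the inputs of the WT set and 543 and 314 CPM in the baseline IPs (difference -3.33, adjusted p = 9.6e-09). Kalrn, the spine exchange factor kalirin, was at 1939 and 1667 CPM in the IPs against 543 to 639.7 CPM (median 575) in the inputs of the WT set and 11148 and 6069 CPM in the baseline IPs (difference -2.24, adjusted p = 2.7e-05). Of 117 genes called in opposite directions in the sets, 93 were higher in the WT IPs and lower in the baseline IPs, and 24 the reverse.

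**Figure D5:**
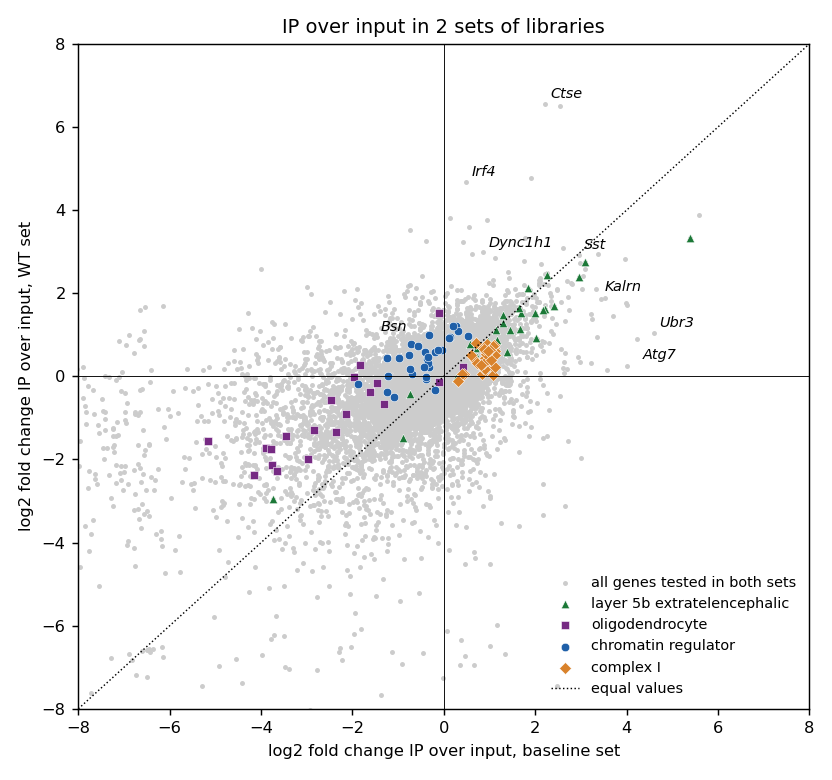
Log2 fold change of IP over input in the WT set (vertical axis) against the baseline set (horizontal axis) for the 14308 genes tested in both (grey), with 4 gene lists and 8 single genes marked and a dotted line of equal values; 30 genes lie outside the axes at 8. Layer 5b markers lie mostly near or below the dotted line, chromatin regulators above it, complex I genes mostly below it, and Ubr3, Atg7 and Kalrn to the far right.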

How the data were processed

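Per the labels' protocols, each library started from 15 ng of RNA, amplified as cDNA by a NuGEN Ovation kit before TruSeq library preparation. The submitters' processing notes name Subread and featureCounts without versions, DESeq2 1.26.0 and build mm10. The deposited files hold raw gene counts for 24100 features per library; 9 without a symbol, at most 0.0201% of a library, were left out. The authors' deposited comparison tables were not used here, nor were their 36 columns of values per library.

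Groups came from titles and genotype labels. The members and gene lists were chosen with earlier results of these data known. CPM are counts over the library total. R 4.3.3 ran edgeR 4.0.16 and limma 3.58.1. Genes passed filterByExpr, libraries were scaled by TMM, and a quasi-likelihood F test (robust fit) was used with Benjamini-Hochberg adjustment at 0.05. Each IP was compared with its inputs in its own libraries, and the difference between sets in 1 fit of 12. All reported log2 fold changes come from these fits, tested on simulated data first. Transcript lengths and gene positions are from GENCODE M21 (GRCm38). Lengths covered 98.8% of genes. Depth per library was 16284037 to 35659043 counts in the WT set, and the 2 IPs limit precision.

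Genes were named by rule: up to 12 per direction by fold change, if the groups did not overlap and the higher averaged 5 CPM or more, up to 3 members per list with 1 of the opposite direction, a fixed set, and up to 8 per direction by the difference between sets. Not all so named are printed. Arid1a, Cdh13, Erg, Etv1, Gad2, Ina, Jchain, Map1b, Nefl, Npy, Parm1, Peg13, Pou3f1, Prdm1, Snhg11, Sptan1, Sulf2 and Xbp1 lie outside it and were chosen after their values were seen. Alternatives were RLE factors and Wald test of DESeq2 1.42.0, upper quartile factors, other low-count filters, a test against a 1.5-fold change, thinning, length and GC trends, replicate blocks, each library left out, 1 fit of 16 libraries and, chosen after seeing the data, detection of Ddx3y as a covariate.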

Additional observations from a re-analysis of the deposited data

Results flagged for a closer look

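Among the 5 WT inputs, 1 library stood apart from the other 4 in 9 of 95 sets of values examined. The threshold flags about 1 in 20 by chance for a set on its own. All sets came from the same 5 libraries and are not independent, so 1 deviating library can be flagged many times. Input 3 was that library for 8 genes. It was highest for Fezf2 at 55.0 CPM, Slc17a7 at 361.0 CPM, Nefl at 447 CPM, Lhx6 at 35.2 CPM, Smarca4 at 131 CPM and Arid1a at 158 CPM, and lowest for Kif1a at 678 CPM and Igf2 at 39.1 CPM. Input 5 was highest for Ntsr2, at 24.2 CPM. In all 9 genes the IPs still lay outside the range of the inputs.

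Enrichment differed between the WT and baseline sets, by the test of the difference itself, in 23 of the genes whose difference is given above. Some were named by this same test and some after their values were seen, so the count is not a rate. Over all 15342 genes tested, 1890 (12.3%) passed. The differences of Gprin3, Fezf2, Bcl11b, Nefh, Sst, Pvalb, Vip, Pou2af1 and Nek2, also given above, did not. Toward the WT set on the log2 scale the 23 were Ctse (4.34), E2f2 (4.27), Irf4 (4.19), Bsn (2.46), Dync1h1 (2.13), Gfap (1.97), Snhg11 (1.36), Eif4g3 (1.33), Eif4g1 (1.32), Map1a (1.31), Arid1a (1.28), Mbp (1.23), Unc13a (1.22), Sptan1 (1.14), Ppp1r9a (1.08), Atrx (0.99), Chd6 (0.94) and Smarca4 (0.79). Toward the baseline set they were Ubr3 (-3.56), Atg7 (-3.33), Kalrn (-2.24), Rpl29 (-1.08) and Snap25 (-0.76).

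In the SOD1*G93A Gprin3 IPs, outside the comparison, library 2 held 460.2 CPM of Ctse, 369 CPM of Irf4, 205 CPM of Pou2af1, 83.2 CPM of E2f2, 33.0 CPM of Nek2 and 17.7 CPM of Jchain, above every WT input.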

How the results depend on the processing

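Against a change of 1.5-fold instead of 0, 1723 genes were called in the WT set, 1363 in the baseline set and 383 for the difference between sets. Under the other alternatives the WT count kept between 4297 and 6402. With 1 library left out in turn, the WT count was 5093 to 5938, the baseline count 2285 to 5932 and the count for the difference 1077 to 2332. Where an IP was left out, the remaining one was assumed to vary like the inputs. Of the 6037 WT calls 3394 (56.2%) were kept, in the same direction, without each of the 7 libraries. Title numbers pair no libraries by any label, and the 2 same-numbered pairs had correlations of deviations of 0.037 and -0.055. With the replicate block the counts were 4297 in the WT set, 3807 in the baseline set and 1096 for the difference; the WT calls of Malat1, Mbp, Rpl18, Erg and Colgalt2 and the differences of Gfap and E2f2 were lost. Numbers in file names instead gave 4893 WT calls, and detection of Ddx3y as a covariate, chosen after seeing the data, gave 6178. Snap25, not past the threshold, was called higher (0.23) with a GC trend taken out; the cause was not tested. For the genes named, 1706 WT values under the alternatives kept their direction and side of the threshold, 35 lost the call and 5 gained it.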
